A study of Mus musculus with 12 samples.

Results

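Levels of 9 cathepsin genes (*Ctss*, *Ctsb*, *Ctsl*, *Ctsf*, *Ctsz*, *Ctsh*, *Ctsc*, *Ctsd* and *Ctsa*) and of *Cst3*, the gene of cystatin C, were compared between sorted brain cells with high and low fluorescence from a p16 reporter. The 10 genes are a list of named lysosomal cathepsins and their inhibitor, out of 47643 genes in the count table. The list leaves out 14 other cathepsins, among them *Ctso*, which had more counts than *Ctsf*. Each of the 10 was found under 1 Ensembl identifier. The samples came from 5 old male p16-3MR mice on a C57BL/6 background, aged 113, 115, 116, 116 and 116 weeks (mice 1 to 5). Both populations carried the p16-3MR transgene. Its p16 promoter drives a fusion protein, and the red fluorescent part of that protein was the signal of the sort. Viable nucleated cells of each brain were sorted into 1 RFPneg sample, which the methods describe as low rather than absent fluorescence, and 1 RFPpos sample with high fluorescence. The populations are therefore paired by mouse. No surface marker entered this sort, so that a sample could hold any brain cell type.

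Libraries were of the 3′ type, in which a transcript gives a tag near its end whatever its length, so that levels of different genes can be set side by side as CPM, which scale the counts of every sample to the same total on genes. In the RFPneg samples of mice 1 to 5, 177287, 196103, 415834, 248471 and 299680 counts fell on genes. The RFPpos samples had 222560, 289713, 223052, 250482 and 242798. In a chi-square comparison of counts over genes, the RFPpos samples of mice 1 and 5 each differed more from those of mice 2, 3 and 4 than these did from each other. The RFPpos sample of mouse 5 also stood apart in other measures. Its share of reads on no gene was 48.6%, where the other 4 lay between 38.4% and 42.1% and the RFPneg samples between 32.1% and 37.2%, and it was the highest or lowest sample by a wide gap for *Ctsb*, *Ctsf*, *Ctsz* and *Ctsa*. Values without mouse 5 are given beside the result of each member. The RFPpos sample of mouse 1 had the highest share of counts on mitochondrial genes, 20.9%, where the other RFPpos samples lay between 13.1% and 16.1% and the RFPneg samples between 14.99% and 18.5%, and without mouse 1 the same 8 members were called. Fewer genes had a count in RFPpos than in RFPneg in all 5 mice, 11209 against 12908 on average. *Cdkn2a*, the locus of p16, had 2, 0, 0, 2 and 4 counts in the RFPneg samples and 0 in each of the 5 RFPpos samples, where a count of 0 allows up to 3 counts. The 8 counts thus lay in the population with low fluorescence, against the direction of the label, and were too few for the test. The tag counts also do not separate p16 from p19Arf, which share the last exons of the locus.

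Cathepsins are the main proteases of the lysosome. Most are cysteine proteases of the papain family, cathepsin D is an aspartic protease and cathepsin A a serine carboxypeptidase, and they are made as inactive precursors that are activated in the acid lumen. Cystatin C is a small secreted protein that binds the active site of papain-type cathepsins and blocks it, and it is abundant in brain, where microglia and astrocytes both make it. Microglia, the resident macrophages of the brain, carry high levels of cathepsin S, an enzyme that stays active at neutral pH and trims the invariant chain during antigen presentation.

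All 10 genes had a higher mean level in the RFPpos than in the RFPneg samples, and 8 of them rose past the test, while relative to a list of 20 microglia genes 1 was called higher and 1 lower, and 7 of the 10 had log2 fold changes below 0 (*Ctsb* and *Ctsl* with −0.013 and −0.026), where the median of all tested genes was −1.08. With scaling over all genes (TMM) *Ctsz* rose most, by 1.82 on the log2 scale, and *Ctss*, *Ctsd*, *Ctsb* and *Ctsl* rose by between 1.03 and 1.23, which is 2.04-fold to 2.35-fold. *Cst3*, *Ctsa* and *Ctsc* rose less, by between 0.73 and 0.87. *Ctsh* and *Ctsf*, with log2 fold changes of 0.26 and 0.66, did not pass. As a share of all counts, the 10 genes took 1.45%, 1.20%, 1.30%, 1.07% and 1.64% in the RFPneg samples and 2.78%, 2.76%, 2.66%, 2.81% and 2.31% in the RFPpos samples. The lowest RFPpos share, in mouse 5, was above the highest RFPneg share, which was also in mouse 5.

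The test was edgeR's quasi-likelihood test with the mouse as a block, adjusted over the 4210 genes with enough counts, and all 10 members were among them. Of these 4210 genes, 427 were called higher (10.1%) and 489 lower (11.6%) in RFPpos, against 8 members called higher, and with scaling over all genes no member had a fold change below 0 in edgeR, DESeq2 or limma. With the added demand of a log2 fold change above 1, 5 members were called (*Ctss*, *Ctsb*, *Ctsl*, *Ctsz* and *Ctsd*), and 242 of all genes (5.75%). The median log2 fold change was 0.95 over the 10 members and −0.03 over all tested genes. Every RFPpos sample was above every RFPneg sample for 7 members, which held for 8.05% of the tested genes, and the RFPpos sample was the higher of its mouse in 5 of 5 mice for 9 members, which held for 14.3%. When library sizes included the reads on no gene, 6 members were called, and the calls over all genes moved from 427 higher and 489 lower to 282 higher and 602 lower. In bulk samples such as these, fewer cells of a type and less RNA per cell cannot be told apart.

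**Figure D1:**
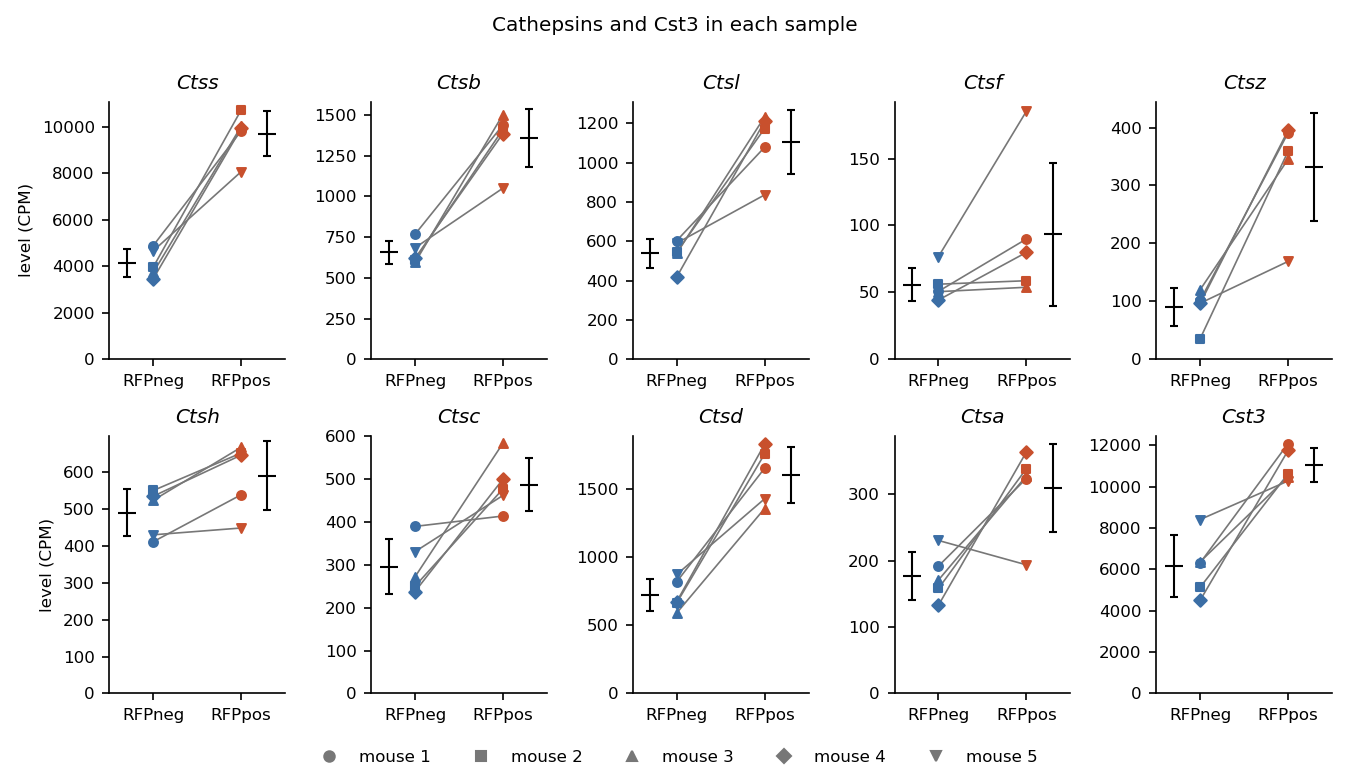
Level of each gene in CPM on a linear axis that starts at 0, with RFPneg samples in blue and RFPpos samples in orange, a grey line joining the samples of a mouse, and black bars for the mean ± SD (n = 5). The populations are apart for 7 genes and overlap for *Ctsf*, *Ctsh* and *Ctsa*, and the RFPpos sample of mouse 5 (triangle pointing down) is the lowest of its group for *Ctsz* with 169 CPM and the highest for *Ctsf* with 185 CPM.

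The sequence in front of the starts of the members was read from a set of promoters at RefSeq starts (GRCm38.p6). The set used here held 8 of the 10 members and lacked *Ctsb* and *Ctsh*, whose windows were therefore not read. The window ran from 250 bases before to 30 after each annotated start, and *Ctsa* had 2 starts, which makes 9 windows. They were searched on both strands for the letters CACGTG, the palindromic E-box at the core of the lysosomal gene element bound by Tfeb and Tfe3, and for GAGGAAGT (ACTTCCTC on the other strand), a site of the type bound by PU.1, a transcription factor of macrophages and microglia. The E-box stood in the windows of 4 genes, *Ctsl*, *Ctsf*, *Ctsd* and *Ctsa*, with 6 matches in 4 of the 9 windows, and 6.79% of 32851 promoter windows of this length in the mouse hold it. The PU.1-type letters stood in 2 windows, those of *Ctss* and *Ctsc*, and in 2.82% of all windows. The whole window is shown for *Ctss*, the most abundant cathepsin (chr3:95526536-95526815, plus strand), for *Ctsc* (chr7:88277835-88278114, plus strand) and for *Ctsz*, the gene with the largest difference (chr2:174439010-174439289, minus strand), with matches in capitals. In *Ctss* the match begins 2 bases before the start and runs into the untranslated part of the first exon. In *Ctsc* it begins 151 bases before the start, in front of the gene. The *Ctsz* window held neither motif.
Ctss: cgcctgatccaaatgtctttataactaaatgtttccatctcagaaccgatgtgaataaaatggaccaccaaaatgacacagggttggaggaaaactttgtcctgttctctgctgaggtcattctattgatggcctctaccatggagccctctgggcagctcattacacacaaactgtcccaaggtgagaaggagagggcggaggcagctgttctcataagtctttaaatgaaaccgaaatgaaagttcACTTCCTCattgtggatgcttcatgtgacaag
Ctsc: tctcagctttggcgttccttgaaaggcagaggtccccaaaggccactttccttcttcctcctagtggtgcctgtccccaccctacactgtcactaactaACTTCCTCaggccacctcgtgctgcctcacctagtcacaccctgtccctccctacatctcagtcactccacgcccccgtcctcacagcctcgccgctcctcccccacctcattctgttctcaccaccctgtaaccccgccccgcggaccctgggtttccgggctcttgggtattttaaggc
Ctsz: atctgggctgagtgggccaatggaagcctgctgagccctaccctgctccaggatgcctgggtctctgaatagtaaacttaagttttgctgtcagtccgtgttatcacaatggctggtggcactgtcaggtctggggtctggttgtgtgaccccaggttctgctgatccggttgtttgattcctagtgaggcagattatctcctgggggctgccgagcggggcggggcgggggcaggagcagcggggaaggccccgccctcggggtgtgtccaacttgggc
The E-boxes are shown in capitals with up to 10 bases on each side. In *Ctsd*, on the minus strand, they begin 245 bases (chr7:142388057-142388077, in front of the gene) and 98 bases (chr7:142387910-142387935) before the RefSeq start. In *Ctsa*, on the plus strand, both lie in the window of the downstream start (chr2:164833523-164833802), which is inside the gene. There one begins 12 bases before that start (chr2:164833751-164833776) and one just after it (chr2:164833768-164833793). The window at the upstream start of *Ctsa* (chr2:164832622-164832901) held neither motif. In *Ctsl* the match is 236 bases (chr13:64370741-64370766, minus strand) and in *Ctsf* 79 bases before the start (chr19:4855076-4855101, plus strand, in front of the gene). The second *Ctsd* match, both *Ctsa* matches and the *Ctsl* match lie in untranslated exon sequence of longer GENCODE transcripts. Genes with and without either motif were among those that rose, and a match is a description of the letters, not a measured binding site.
Ctsd, first: tccccCACGTGacctgtatcc
Ctsd, second: gcccgcgtctCACGTGacccgttgag
Ctsa, first: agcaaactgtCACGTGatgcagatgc
Ctsa, second: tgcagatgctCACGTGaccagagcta
Ctsl: cgttagaagcCACGTGctgatctaaa
Ctsf: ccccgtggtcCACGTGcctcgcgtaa

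Among the cysteine endopeptidases, *Ctss* (ENSMUSG00000038642; GRCm38 chr3:95526786-95556403, plus strand) encodes cathepsin S. Its level in the RFPneg samples of mice 1 to 5 was 4890.4, 3967, 3732, 3465 and 4665 CPM, and in the RFPpos samples it was 9822, 10721, 10016, 9929 and 8068 CPM. The lowest RFPpos sample, that of mouse 5, was still far above the highest RFPneg sample, that of mouse 1, and the groups did not overlap. The means were 4144 ± 610.3 CPM and 9711 ± 984 CPM (SD, n = 5), which placed *Ctss* 11th in RFPneg and 8th in RFPpos among all genes. The log2 fold change was 1.23 (standard error, SE, 0.16, 95% interval 0.89 to 1.57, edgeR adjusted p = 1.89e-05), and 1.33 without mouse 5. *Ctsb* (ENSMUSG00000021939; chr14:63122462-63145923, plus strand) encodes cathepsin B, which cuts within proteins and also removes dipeptides from their ends. It had 767, 612, 594, 619.8 and 684 CPM in the RFPneg samples and 1438, 1412, 1502, 1385 and 1050.3 CPM in the RFPpos samples. The RFPpos samples of mice 1 to 4 lay close together, mouse 5 lay below them, and none reached down to the RFPneg samples. *Ctsb* had a log2 fold change of 1.04 (SE 0.17, edgeR adjusted p = 1.92e-04), and 1.13 without mouse 5.

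*Ctsl* (ENSMUSG00000021477; chr13:64359337-64370890, minus strand) encodes cathepsin L, a strong endopeptidase that also processes other cathepsins. Its RFPneg samples had 604, 546, 539, 419 and 591 CPM and its RFPpos samples 1078, 1174, 1233, 1209.7 and 836 CPM. Mouse 5 was again the lowest RFPpos sample, mouse 4 the lowest RFPneg sample, and the groups were apart. The log2 fold change was 1.03 (SE 0.18, edgeR adjusted p = 3.10e-04), and 1.15 without mouse 5. *Ctsf* (ENSMUSG00000083282; chr19:4855130-4860918, plus strand) encodes cathepsin F, whose loss causes a lysosomal storage disease of neurons. It was the scarcest member, with 50.8, 56.1, 50.5, 44.3 and 76.7 CPM in RFPneg and 89.9, 58.7, 53.8, 79.8 and 185 CPM in RFPpos, from 75 and 114 counts in all. Of the 114 counts 45 came from mouse 5, and the groups overlapped. For *Ctsf* the log2 fold change was 0.66 (95% interval −0.01 to 1.32, adjusted p = 0.156 from edgeR) and 0.43 without mouse 5, so that both 0 and a log2 fold change of 1 lie within its interval at this depth.

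Of the exopeptidases, *Ctsz* (ENSMUSG00000016256; chr2:174427493-174439039, minus strand) encodes cathepsin Z, a carboxypeptidase also called cathepsin X. It had 102, 35.7, 120.2, 96.6 and 96.8 CPM in the RFPneg samples and 391, 359, 345, 395 and 169 CPM in the RFPpos samples. The groups did not overlap, but the RFPneg sample of mouse 2, with 7 counts, and the RFPpos sample of mouse 5, with 41 counts, each lay far below the rest of its group. The log2 fold change was 1.82 (SE 0.27, 95% interval 1.26 to 2.37, edgeR adjusted p = 6.10e-05), 1.57 without mouse 2 and 2.05 without mouse 5. *Ctsc* (ENSMUSG00000030560; chr7:88278085-88310888, plus strand) encodes cathepsin C, a dipeptidyl peptidase that activates the serine proteases of neutrophil and lymphocyte granules. Its level was 389, 249.9, 272, 237 and 330.4 CPM in RFPneg and 413, 476, 583, 499 and 461 CPM in RFPpos. The groups came close without overlap, and in mouse 1 the samples differed little, with a log2 ratio of 0.09 against at least 0.48 in the other mice. In the fit *Ctsc* differed by a log2 fold change of 0.73 (SE 0.19, edgeR adjusted p = 0.00819) and 0.78 without mouse 5. Without mouse 3 it was 0.66 and no longer called (adjusted p = 0.0559 from edgeR, over a range of 0.00128 to 0.0690 among 13 alternatives).

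*Ctsh* (ENSMUSG00000032359; chr9:90054152-90076089, plus strand) encodes cathepsin H, an aminopeptidase. It had 412, 551, 524, 535 and 430.5 CPM in the RFPneg samples and 539, 652, 668, 647 and 449 CPM in the RFPpos samples. Each RFPpos sample was a little above the RFPneg sample of its mouse, and the groups overlapped, with mice 1 and 5 the lowest in both. In the paired fit the log2 fold change was 0.26 (95% interval −0.10 to 0.62, adjusted p = 0.326 from edgeR) and 0.29 without mouse 5.

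*Ctsd* (ENSMUSG00000007891; chr7:142375911-142388038, minus strand) encodes cathepsin D, the main aspartic protease of lysosomes, which cystatins do not inhibit. The RFPneg samples had 818, 663, 589, 672 and 871 CPM and the RFPpos samples 1649, 1753, 1354, 1824 and 1425 CPM. The groups were well apart, with the lowest RFPpos sample in mouse 3. *Ctsd* had a log2 fold change of 1.15 (SE 0.17, edgeR adjusted p = 7.77e-05) and 1.24 without mouse 5. *Ctsa* (ENSMUSG00000017760; chr2:164832873-164841032, plus strand) encodes cathepsin A, a serine carboxypeptidase that also shields the lysosomal enzymes neuraminidase and beta-galactosidase. It had 192, 158, 171, 133 and 230.2 CPM in RFPneg and 324, 338, 327, 363 and 194 CPM in RFPpos. It was the member in which the RFPpos sample of mouse 5 fell below its RFPneg partner, and the groups overlapped through that mouse. For *Ctsa* the log2 fold change was 0.79 (SE 0.22, edgeR adjusted p = 0.0153), and 1.03 without mouse 5 (adjusted p = 0.00198 from edgeR). Leaving out mouse 2, 3 or 4 ended the call of *Ctsa*, with adjusted p = 0.0676, 0.0616 and 0.0770 from edgeR, within a range of 0.00198 to 0.0911 over 13 alternatives. *Ctsa* overlaps *Pltp* on the opposite strand, which had 613 counts and was lower in RFPpos (log2 fold change −3.84, edgeR adjusted p = 4.71e-08), and *Ctsz* overlaps *Nelfcd* on the opposite strand, with 37, and whether the counting used strand is not given in the sources used here, so that the values of these genes are uncertain to that extent. Smaller overlaps are those of *Ctss* with *Hmgb1-ps5* on the same strand (6 counts) and of *Ctsb* with *Fdft1* on the opposite strand (8 counts). On the same strand, *Ctsl* overlaps a pseudogene and *Ctsd* a gene model, and neither is among the genes of the count table. On the opposite strand, *Ctsa* also overlaps *Neurl2* (6 counts), *Ctsc* overlaps *Gm26522* (0 counts) and *Ctsl* overlaps the antisense gene *Gm47123*, which is also not in the count table.

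*Cst3* (ENSMUSG00000027447; chr2:148871722-148875692, minus strand), the inhibitor, had the highest mean of the 10 genes in both populations. It had 6317, 5135, 6368, 4508 and 8409 CPM in the RFPneg samples and 12078, 10621, 10486, 11745 and 10272 CPM in the RFPpos samples. The RFPneg samples were widely spread, from mouse 4 to mouse 5, the RFPpos samples lay close together, and the groups did not overlap. The means were 6147 ± 1492 CPM and 11040.4 ± 813 CPM (SD, n = 5), 10th and 6th among all genes. In the fit *Cst3* differed by a log2 fold change of 0.87 (SE 0.17, edgeR adjusted p = 0.00102), and 1.00 without mouse 5.

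In order of mean level, the RFPneg samples had *Cst3*, *Ctss*, *Ctsd*, *Ctsb*, *Ctsl*, *Ctsh*, *Ctsc*, *Ctsa*, *Ctsz* and *Ctsf*, and the RFPpos samples had the same order except that *Ctsz* passed *Ctsa*. The ranges of *Cst3* and *Ctss* overlapped in both populations, and in the RFPpos sample of mouse 2 *Ctss* was above *Cst3*. A wide step followed *Ctss*, which was 5.73 times *Ctsd* in RFPneg and 6.06 times in RFPpos. The neighbours *Ctsd* and *Ctsb*, and *Ctsb* and *Ctsl*, overlapped in their ranges in both populations. *Ctsl* and *Ctsh* overlapped in RFPneg, where their order held in 3 of 5 samples, and were apart in RFPpos, where *Ctsl* was 1.87 times *Ctsh*. *Ctsz* and *Ctsa* were apart in RFPneg and overlapped in RFPpos.

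The sorted populations also differed in the summed levels of marker lists of cell types. The microglia core list of 20 genes, all detected, summed to 19889, 12809.6, 14186, 13293 and 18286 CPM in the RFPneg samples and to 37037, 30834, 33405, 31731 and 28505 CPM in the RFPpos samples, with *Cx3cr1* as its most abundant gene. All 20 were called higher in RFPpos, with a median log2 fold change of 1.11 and a range of 0.63 to 1.68, which spans the fold changes of the members other than *Ctsz* (1.82) and *Ctsh* (0.26). Neutrophil genes (8 of 8 detected, *S100a8* the most abundant, *Ltf* at 0 in RFPpos) summed to 2617, 2881, 7308, 4431 and 2413 CPM in RFPneg and 53.9, 124, 193, 3.99 and 0 CPM in RFPpos. Monocyte and dendritic cell genes (9 of 9 detected, *H2-Aa* the most abundant, *Ly6c2* and *Chil3* at 0 in RFPpos) had 1602, 1326, 1623, 1622 and 1488 CPM in RFPneg and 80.9, 159, 202, 307 and 136 CPM in RFPpos. Both lists of blood leukocytes were thus lower in RFPpos in every mouse.

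Endothelial genes (10 of 10 detected, *Flt1* the most abundant) summed to 1811, 5681, 5962, 7546 and 4511 CPM in RFPneg and 89.9, 173, 197, 367 and 255 CPM in RFPpos. Oligodendrocyte genes (10 of 10, *Mbp* the most abundant, *Opalin* at 0 in RFPpos) summed to 4084, 2417, 1549, 1533 and 1862 CPM and to 391, 166, 323, 216 and 239 CPM. Astrocyte genes (10 of 10, *Slc1a2* the most abundant), of a cell type that also makes cystatin C, had 4005, 5834, 5238, 4065 and 4638 CPM in RFPneg and 971, 2955, 5676, 5925 and 4666 CPM in RFPpos. They did not separate the populations, being higher in RFPpos in 3 of 5 mice. Of the other lists, means in RFPneg and RFPpos were 199 and 200.3 CPM for CNS-associated macrophages, 308 and 96.7 for neurons, 431 and 66.9 for mural cells, 209.8 and 63.8 for fibroblasts, 251 and 4.89 for T and NK cells, 247 and 216 for B cells, and 3071 and 777 for choroid plexus and ependyma. Most of the B cell sum was *Ighm*, with means of 222.5 and 206.3 CPM, and *Cd79a* was at 0 in RFPpos. The part of these shifts in the differences of the members was not tested by these sums.

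Because the microglia genes as a whole were higher in RFPpos, each member was also compared relative to them, with the summed counts of the 20 core genes as the library size. On that scale 1 member was higher, *Ctsz*, 1 was lower, *Ctsh*, and the other 8 did not pass the test. *Ctsb* and *Ctsl*, which were 2.06-fold and 2.04-fold higher with TMM scaling, had log2 fold changes close to 0, at −0.013 and −0.026. The scaling moved the median log2 fold change of all tested genes from −0.03 to −1.08, so that 14 genes were called higher (0.333%) and 2940 lower (69.8%), against 1 and 1 of the 10 members. The median over the members was −0.11.

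*Ctsz* was 0.78 above the microglia core on the log2 scale (95% interval 0.22 to 1.33, adjusted p = 0.0164 from edgeR). Of the 20 core genes themselves 2 were also called higher on this scale, *Laptm5* at 0.63 and *Fcrls* at 0.59 (adjusted p = 0.00415 and 0.0126 from edgeR). Per 100 counts on the core it had 0.510, 0.279, 0.848, 0.727 and 0.529 counts in the RFPneg samples and 1.06, 1.16, 1.03, 1.25 and 0.592 counts in the RFPpos samples. It was the higher in RFPpos in 5 of 5 mice, but the RFPpos sample of mouse 5 lay among the RFPneg samples. Without mouse 2, whose RFPneg sample had 7 counts, the value for *Ctsz* was 0.55 and no longer called (adjusted p = 0.0769 from edgeR, over a range of 0.00804 to 0.0769 among 8 alternatives), and without mouse 5 it was 0.92.

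*Ctsh* was the member called lower. Per 100 counts on the core it had 2.07, 4.30, 3.70, 4.03 and 2.35 counts in the RFPneg samples and 1.46, 2.12, 2.00, 2.04 and 1.57 counts in the RFPpos samples. It was lower in RFPpos in 5 of 5 mice, and mice 1 and 5 had the lowest RFPneg values. The log2 fold change relative to the core was −0.80 (95% interval −1.18 to −0.42, adjusted p = 0.00138 from edgeR), between −0.87 and −0.74 over 8 alternatives (−0.85 without mouse 5), and called in each. On this scale the median of all tested genes was −1.08 and 69.8% of them were called lower. *Ctsh* thus fell by less than the median gene. The RFPneg samples of mice 1 and 5, the lowest in *Ctsh* relative to the core, also had the highest core sums. The core counts are the divisor of this measure, so that it is tied to those sums. The part of other cells in the *Ctsh* counts was not tested.

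*Ctss* had 24.6, 31.0, 26.3, 26.1 and 25.5 counts per 100 core counts in RFPneg and 26.5, 34.8, 29.98, 31.3 and 28.3 in RFPpos. It was slightly higher in RFPpos in all 5 mice, the groups overlapped, and mouse 2 was the highest in both. The log2 fold change of *Ctss* relative to the core was 0.18 (95% interval −0.15 to 0.50, adjusted p = 0.313 from edgeR). *Cst3* per count on the core was 0.318, 0.401, 0.449, 0.339 and 0.460 in RFPneg and 0.326, 0.344, 0.314, 0.370 and 0.360 in RFPpos, higher in RFPpos in 2 of 5 mice, and its log2 fold change was −0.18 (95% interval −0.53 to 0.16, adjusted p = 0.318 from edgeR). *Ctsd* had 0.09, *Ctsa* −0.27, *Ctsc* −0.32 and *Ctsf* −0.38, with adjusted p-values from edgeR of 0.615, 0.268, 0.139 and 0.338. Without mouse 5 these 4 values were 0.10, −0.11, −0.36 and −0.71, and those of *Ctss*, *Cst3*, *Ctsb* and *Ctsl* were 0.18, −0.14, −0.01 and 0.00253. *Ctsf* was −0.19 without mouse 2 or mouse 3, *Ctsc* −0.20 without mouse 1 and *Cst3* −0.10 without mouse 3, and none of these passed.

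**Figure D2:**
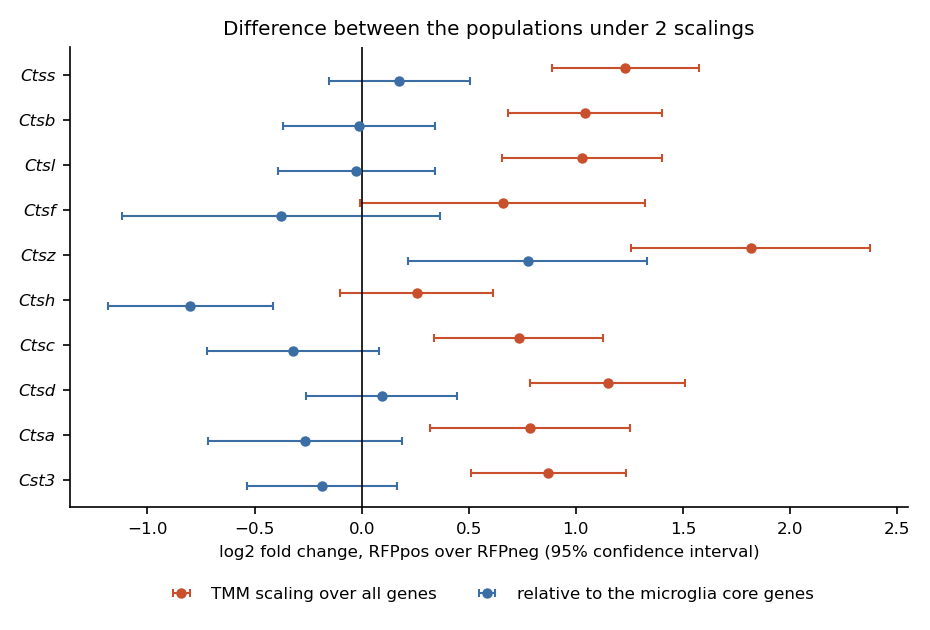
Log2 fold change of RFPpos over RFPneg (points) with 95% confidence intervals (bars) for the 10 genes, in orange with TMM scaling over all genes and in blue relative to the 20 microglia core genes. With TMM scaling every point is above 0, from 0.26 for *Ctsh* to 1.82 for *Ctsz*, and relative to the core the interval of *Ctsz* lies above 0, that of *Ctsh* below 0, and the other 8 span 0.

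The makeup of the cathepsin counts themselves does not depend on the scaling, since both parts of a share come from the same sample. *Ctss* took most of the counts on the 9 cathepsins, with 59.5%, 58.0%, 56.6%, 55.7% and 58.5% in the RFPneg samples and 62.4%, 63.3%, 62.3%, 60.8% and 62.8% in the RFPpos samples. The share was higher in RFPpos in 5 of 5 mice, with no overlap. *Ctsh* took 5.01%, 8.05%, 7.95%, 8.60% and 5.40% in RFPneg and 3.42%, 3.85%, 4.15%, 3.96% and 3.50% in RFPpos, and so was lower in RFPpos in 5 of 5 mice, also with no overlap. *Ctsc* went the same way as *Ctsh*, from 4.09% ± 0.413 to 3.14% ± 0.453 (SD, n = 5), with every RFPpos sample below every RFPneg sample. *Ctsz* went from 1.27% ± 0.488 to 2.10% ± 0.466 (SD, n = 5), higher in RFPpos in 5 of 5 mice but with overlap between the groups. The shares of *Ctsb*, *Ctsl*, *Ctsf*, *Ctsd* and *Ctsa* overlapped between the populations. Shares of a whole are tied to each other, so that a larger share of *Ctss* lowers the rest.

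The inhibitor was also set against its targets as *Cst3* counts per count on the 7 cysteine cathepsins. This ratio was 0.876, 0.853, 1.09, 0.832 and 1.22 in the RFPneg samples and 0.877, 0.715, 0.728, 0.830 and 0.916 in the RFPpos samples. The RFPneg samples of mice 3 and 5 stood above the rest, in mice 1 and 4 the samples of a mouse were nearly alike, and the groups overlapped. The ratio is one of transcripts and not of proteins.

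**Figure D3:**
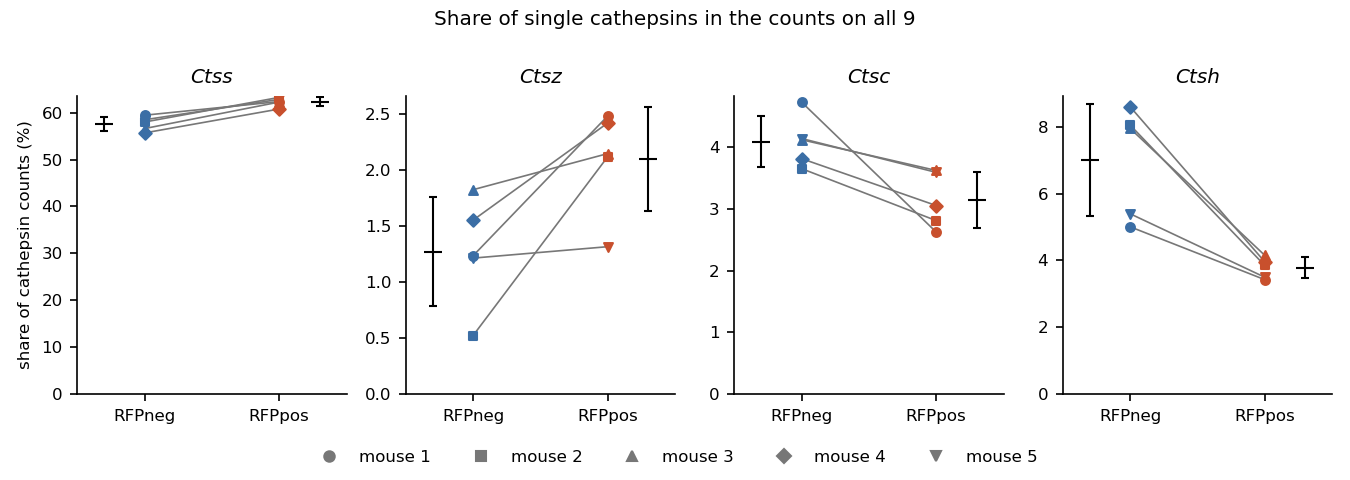
Share of *Ctss*, *Ctsz*, *Ctsc* and *Ctsh* in the counts on all 9 cathepsins, in percent on linear axes that start at 0, with RFPneg samples in blue, RFPpos samples in orange, a grey line joining the samples of a mouse, and black bars for the mean ± SD (n = 5). The RFPpos samples are all above the RFPneg samples for *Ctss*, with a mean of 62.3% against 57.7%, and all below them for *Ctsc* and *Ctsh*.

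Most other genes of the protease and inhibitor families were not detected. Of 14 other cathepsins, 10 had no count in any sample and 1, *Ctso*, a papain-type cathepsin, had enough counts for the test. It had a log2 fold change of −0.09 (95% interval −0.66 to 0.49, adjusted p = 0.879 from edgeR), and relative to the microglia core it was lower, at −1.14 (adjusted p = 0.00415 from edgeR), where the median of all tested genes was −1.08 and 69.8% were called lower. *Ctsk*, the collagen-degrading cathepsin of osteoclasts, had 9 counts over the RFPneg samples and 0 over the RFPpos samples, *Ctsw*, of cytotoxic lymphocytes, had 6 and 0, and *Ctse* had 0 and 3, counts too small for a fold change. Of 13 other cystatins, 9 had no count and 1, *Cstb*, the inhibitor inside the cell, was tested. *Cstb* had 79.0, 102, 96.2, 84.5 and 56.7 CPM in RFPneg and 58.4, 65.6, 62.8, 31.9 and 20.6 CPM in RFPpos. The RFPpos sample was the lower in 5 of 5 mice, and the groups overlapped through the RFPneg sample of mouse 5. The log2 fold change was −0.86 (95% interval −1.55 to −0.17, adjusted p = 0.0703 from edgeR), which did not pass, while relative to the microglia core *Cstb* was lower, at −1.93 (adjusted p = 1.45e-04 from edgeR), beside the same median and share. *Cst7*, the cystatin of activated microglia and lymphocytes, had 25 counts in each population and was not tested.

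Of 8 other lysosomal proteases, 6 were tested, 2 rose and 0 fell, beside 10.1% higher and 11.6% lower among all tested genes, while relative to the microglia core 0 were higher and 1, *Cpq*, was lower, beside 0.333% and 69.8%. Those that rose were *Lgmn*, which encodes legumain, a protease that activates cathepsins and is itself blocked by cystatin C, and *Tpp1*, a tripeptidyl peptidase. *Lgmn* had 1241, 1086, 1238, 1083 and 1585 CPM in RFPneg and 2359, 1929.5, 2103, 2248 and 1519.8 CPM in RFPpos. It was higher in RFPpos in 4 of 5 mice, mouse 5 being the exception, and its log2 fold change was 0.70 (SE 0.18, edgeR adjusted p = 0.00934). *Tpp1* had a log2 fold change of 0.64 (SE 0.19, edgeR adjusted p = 0.0207). Both turned relative to the microglia core, to −0.36 and −0.41. *Prcp*, *Scpep1*, *Ggh* and *Cpq* did not pass, with values of 0.71, 0.38, 0.13 and −0.83. The median over the 6 was 0.51, against −0.03 over all tested genes.

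Of 18 genes for sorting, partners and regulators of cathepsins, 13 were tested, 4 rose and 1 fell, beside 10.1% and 11.6% of all tested genes, while relative to the microglia core 0 were higher and 6 lower, beside 0.333% and 69.8%. With TMM scaling the median was 0.33, against the same −0.03. The genes that rose were *Grn*, *Tfe3*, *Psap* and *Scarb2*. *Grn* encodes progranulin, which is cut by cathepsins and binds prosaposin, and had 451, 296, 301, 221 and 370.4 CPM in RFPneg and 795, 749, 879, 842 and 671 CPM in RFPpos. The groups of *Grn* were apart, and its log2 fold change was 1.29 (SE 0.19, edgeR adjusted p = 5.61e-05). *Tfe3*, a transcription factor of lysosomal genes, had 1.02 (adjusted p = 0.00768), *Psap*, the precursor of saposins, 0.66 (adjusted p = 0.00844) and *Scarb2*, the carrier of glucocerebrosidase, 0.62 (adjusted p = 0.0267, all from edgeR), while relative to the microglia core *Grn* had 0.24, *Tfe3* −0.02, *Psap* −0.40 and *Scarb2* −0.43. *Cd74*, the invariant chain that cathepsin S trims, was the gene that fell, from 158, 76.5, 159, 229 and 174 CPM in RFPneg to 4.49, 24.2, 4.48, 39.9 and 16.5 CPM in RFPpos. The groups were far apart, and the log2 fold change of *Cd74* was −3.12 (SE 0.40, edgeR adjusted p = 1.22e-05), beside the monocyte and dendritic cell list, which holds the MHC class II genes *H2-Aa*, *H2-Ab1* and *H2-Eb1* and was lower in RFPpos in every mouse. The membrane proteins *Lamp2* and *Lamp1* had 0.48 and 0.33 and *Nagpa*, an enzyme of the mannose phosphate sorting tag, 0.51, none of them past the test. Relative to the microglia core, the medians of these 13 genes and of the 6 lysosomal proteases were −0.73 and −0.54.

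**Figure D4:**
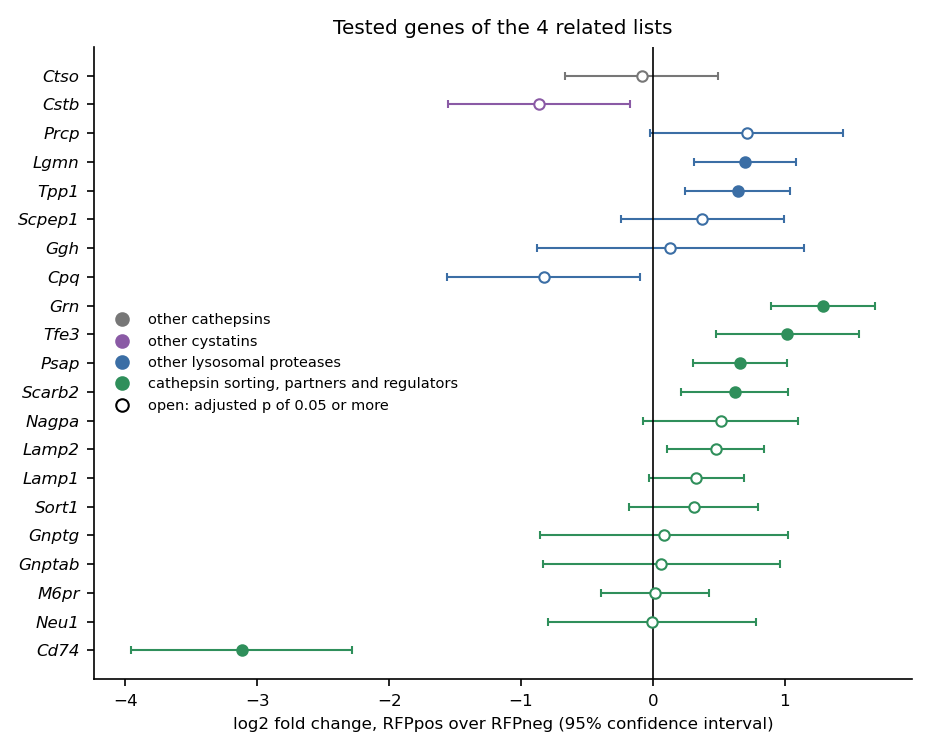
Log2 fold change of RFPpos over RFPneg (points) with 95% confidence intervals (bars) for the tested genes of the 4 related lists, coloured by list, filled where the adjusted p passed the threshold of 0.05 and open where it did not. The filled points are those of *Lgmn*, *Tpp1*, *Grn*, *Tfe3*, *Psap* and *Scarb2* above 0 and *Cd74* at −3.12, all with TMM scaling, while relative to the microglia core no gene of these lists was called higher.

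Among the 4200 tested genes outside the members, those whose pattern over the 10 samples was most like the mean of the 9 cathepsins were *Fcer1g*, *Itgb2*, *Dhrs3*, *Sparc* and *C1qc*. Likeness was the root mean square difference of log2 CPM values centred on each gene's mean, and it was 0.10, 0.13, 0.14, 0.15 and 0.15 log2 units for these, against a median of 0.67 over all 4200 genes. *Sparc* and *C1qc* belong to the microglia core list. For *Cst3*, 4 of the 5 nearest genes were *Efhd2* (0.12), *Maf* (0.15), *Dnm2* (0.15) and *Lgmn* (0.17).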

How the data were processed

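Bulk 3′ libraries (QuantSeq, forward) of 10 samples were analysed. The authors made the deposited counts with the Lexogen pipeline for libraries with molecular identifiers, and did not normalize them. The submitters' notes name mm10 and Cell Ranger 3.0.0, which the methods give for the single-cell reads, and the build of the bulk counts is not given in the sources used here. The 2 single-cell samples were not analysed here.

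Gene symbols were found for 47224 of 47643 identifiers in GENCODE M21 (GRCm38), which also gave the coordinates. Rows for reads on no gene (32.1% to 48.6% of a sample) and ambiguous reads (0.295% to 0.436%) stayed out of library sizes and tests. Counts were scaled with TMM and fitted in edgeR 4.0.16 (R 4.3.3) with the quasi-likelihood test and the mouse as a block. Genes passed filterByExpr when at least 5 samples reached 40.7 CPM, which is 10 counts in the median library. The p-values were adjusted by Benjamini-Hochberg over the 4210 tested genes, with a threshold of 0.05. The same fit was repeated with the summed counts of the 20 microglia core genes as library sizes. CPM values in the text are scaled to counts on genes, without TMM. The authors used edgeR's likelihood ratio test with the mouse as a covariate, which is among the alternatives, with other scalings, filters, tests (DESeq2 1.42.0, limma 3.58.1), no mouse block, and each mouse left out. The fit was tested on simulated counts.

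The pairing comes from the mouse numbers in the labels and from the methods, since both populations of a mouse came from the same brain. After subtraction of the group mean, the log2 CPM values of the paired samples correlated across genes with 0.220, −0.0374, 0.141, −0.00512 and 0.0151 in mice 1 to 5. No pair of samples within a population agreed within sampling noise. Floors and intervals cover counting error and the spread between mice only. The members and the gene lists were chosen with earlier results of these data known. Of each related list the genes with the smallest p-value were named, at most 8 (*Laptm5*, *Fcrls* and *Pltp* were named after their values were seen), and for likeness the 5 nearest genes, of which 1 near *Cst3* is not reported here.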

Additional observations from a re-analysis of the deposited data

Results flagged for a closer look

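In 40 groups of 5 samples (the CPM of each member, the share of each cathepsin in the cathepsin counts and the ratio of *Cst3* to the cysteine cathepsins, in each population), 6 had a highest or lowest sample set apart by a gap of most of the group's range. Chance would give about 2 of 40 if the groups were independent. They are not, since they share the same libraries, and the CPM and the share of a gene come from the same counts. The RFPpos sample of mouse 5 was the one apart in 5 of the 6. *Ctsb* had 1050.3 CPM there, against 1385 to 1502 CPM in the other RFPpos samples. *Ctsf* had 185 CPM there, against 53.8 to 89.9 CPM, and 1.44% of the cathepsin counts, against 0.335% to 0.571%. *Ctsz* had 169 CPM there, against 345 to 395 CPM. *Ctsa* had 194 CPM there, against 324 to 363 CPM. The other was the RFPneg sample of mouse 2, with 35.7 CPM for *Ctsz*, against 96.6 to 120.2 CPM in the other RFPneg samples.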

How the results depend on the processing

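The count of members higher in RFPpos was 8 with TMM, median-of-ratios and total-count scaling, with all genes kept, with the likelihood ratio test, limma and no mouse block. It was 7 with DESeq2, which lost *Ctsa* (adjusted p = 0.0627 from DESeq2), and 6 with reads on no gene in the library sizes, which lost *Ctsc* and *Ctsa* (adjusted p = 0.0690 and 0.0911 from edgeR). It was 5 with a log2 fold change above 1 and 1 with library sizes from the microglia core, and between 6 and 8 without 1 mouse. All genes called numbered 916, 2954 with microglia core library sizes, 1294 with all genes kept (460 higher, 834 lower), and between 662 and 923 without 1 mouse. Without the mouse block it was 917, and no member's call changed. Genes of the related lists called numbered 7, 4 with reads on no gene in the library sizes, 3 with the fold threshold, 5 with DESeq2, 9 with the likelihood ratio test, 9 with microglia core library sizes (all of them lower, where the main fit had 6 higher and 1 lower), and between 5 and 9 without 1 mouse. With microglia core library sizes the log2 fold change turned to −0.013 for *Ctsb*, −0.026 for *Ctsl*, −0.38 for *Ctsf*, −0.80 for *Ctsh*, −0.32 for *Ctsc*, −0.27 for *Ctsa* and −0.18 for *Cst3*, as that scaling makes the summed counts of the core genes equal between samples. Members higher relative to the core numbered 1, and between 0 and 1 without 1 mouse. Without the mouse block it was 1.

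Of 130 other values of single members, 123 kept their direction and side of the threshold and 7 kept their direction and lost the call, all for *Ctsa* or *Ctsc*. The cause of these losses was not tested. The 130 values leave out the microglia core scaling, which also ended the calls of *Ctss* and *Ctsd* (adjusted p = 0.313 and 0.615 from edgeR). Depth limits *Ctsf* and *Ctsz* most, with 75 and 128 counts over the RFPneg samples, and 3 counts are between 7.21 and 16.9 CPM in a sample.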
